A study of Mus musculus with 64 samples.

Results

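Cyp3a and Cyp4a are families of cytochrome P450 genes, and 10 of their members were followed in liver. They were taken as listed symbols, Cyp3a11, Cyp3a13, Cyp3a16, Cyp3a25, Cyp3a41a, Cyp3a44, Cyp4a10, Cyp4a12a, Cyp4a12b and Cyp4a14, and their rows were found by Ensembl gene identifier among the 55573 genes of the count table. The livers came from 20 male mice of 10 to 18 weeks, F1 hybrids of a C57BL/6J and a 129sv parent, which had carried a subcutaneous pellet for 5 days before tissue was collected. The 4 groups of 5 mice were wild type (WT) with a cholesterol vehicle pellet, WT with a pellet of 20 mg corticosterone (CORT), the main glucocorticoid of the mouse, and Angelman syndrome model mice (AS, Ube3a m-/p+) with either pellet. AS mice inherit the deleted allele of Ube3a, an E3 ubiquitin ligase gene, from the mother. The paternal allele is silenced in neurons and active in liver, so AS liver is a model of reduced and not of absent Ube3a, and the deletion is carried by every cell and not by hepatocytes alone.

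Cytochromes P450 are haem enzymes of the endoplasmic reticulum that insert oxygen into small lipophilic molecules, with electrons passed on by the reductase encoded by Por. Cyp3a enzymes hydroxylate steroids, bile acids and many drugs, and in hepatocytes their genes are induced through the nuclear receptors PXR (Nr1i2) and CAR (Nr1i3). Cyp4a enzymes hydroxylate the end of fatty acid chains. Cyp4a10 and Cyp4a14 are classical targets of the fatty acid receptor PPARalpha, whereas Cyp4a12a is a male-biased gene that depends on pulsatile growth hormone and STAT5B.

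The Cyp3a members lie on chromosome 5 and the Cyp4a members in one cluster on chromosome 4 (GRCm38, GENCODE M21). From low to high coordinates the Cyp4a genes were Cyp4a12a at chr4:115299046-115332815 on the plus strand, Cyp4a12b at chr4:115411624-115439034 on the plus strand, Cyp4a14 at chr4:115486200-115496142 on the minus strand and Cyp4a10 at chr4:115518264-115533649 on the plus strand. Cyp3a13 stood apart at chr5:137892932-137921619, while the other 5 Cyp3a members lay between Cyp3a16 at chr5:145436309-145469723 and Cyp3a25 at chr5:145977194-146009618, all on the minus strand. No exon of another annotated gene overlapped an exon of the members. How alike the copies are decides which of them the reads can tell apart. The first 90 coding bases of the Cyp4a genes are shown for that reason, 5′ to 3′ from the start codon (GENCODE M21), with bases in capitals where they differ from Cyp4a12a.
Cyp4a12a: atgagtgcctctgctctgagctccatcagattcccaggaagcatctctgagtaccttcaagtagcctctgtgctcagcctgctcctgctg
Cyp4a12b: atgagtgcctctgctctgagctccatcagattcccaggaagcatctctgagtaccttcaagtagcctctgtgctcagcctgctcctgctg
Cyp4a10: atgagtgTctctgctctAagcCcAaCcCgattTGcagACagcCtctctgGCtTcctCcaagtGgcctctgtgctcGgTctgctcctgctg
Cyp4a14: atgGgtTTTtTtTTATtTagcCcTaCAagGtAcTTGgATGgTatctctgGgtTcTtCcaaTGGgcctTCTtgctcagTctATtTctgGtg
Cyp4a12a and Cyp4a12b were identical over this stretch, whereas Cyp4a10 differed from them at 18 bases and Cyp4a14 at 38. Over the whole coding sequence of 1524 bases, Cyp4a12a and Cyp4a12b differed at 23 bases. The 120 coding bases that hold the most of these differences, bases 644 to 763 with 8 of them, are given with the differing bases in capitals.
Cyp4a12a: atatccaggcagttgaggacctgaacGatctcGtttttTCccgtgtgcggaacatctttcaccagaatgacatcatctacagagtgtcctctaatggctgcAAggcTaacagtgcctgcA
Cyp4a12b: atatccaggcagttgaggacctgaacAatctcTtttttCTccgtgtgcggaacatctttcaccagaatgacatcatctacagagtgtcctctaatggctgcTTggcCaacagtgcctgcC
Of all stretches of 100 bases, the read length, in the longest transcript of Cyp4a12a, 35.8% occurred unchanged in Cyp4a12b, so a read pair that lies wholly within such stretches matches both genes alike and the split of reads between them is uncertain. For Cyp4a10 this share was 12.7% (mostly with Cyp4a32), for Cyp3a25 6.05% (with Cyp3a59), and for Cyp3a11, Cyp3a13 and Cyp4a14 it was 0%. Cyp3a41a shared 90.8% of such stretches with other genes, almost all with Cyp3a41b, so its low count is uncertain.

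Promoters are shown for the 3 Cyp3a genes with abundant reads, because one of them, Cyp3a13, changed with CORT in both genotypes and another, Cyp3a11, in neither. The sequences are the 250 bases before the RefSeq start site (GRCm38.p6), 5′ to 3′ on the strand of the gene. The GENCODE gene of Cyp3a11 reaches chr5:145879964, so part of its printed window lies inside that gene. The windows of Cyp3a13 and Cyp3a25 lie outside their GENCODE genes, so the start sites compared are not alike. Capitals mark AGGTCA (a nuclear receptor motif), TGTTCT (a glucocorticoid receptor motif) or TATAAA, the letters of the box found before some start sites, on either strand. Of the 10 members, 6 had a promoter in the RefSeq table, all of them Cyp3a genes.
Cyp3a13, chr5:137921620-137921869, minus strand: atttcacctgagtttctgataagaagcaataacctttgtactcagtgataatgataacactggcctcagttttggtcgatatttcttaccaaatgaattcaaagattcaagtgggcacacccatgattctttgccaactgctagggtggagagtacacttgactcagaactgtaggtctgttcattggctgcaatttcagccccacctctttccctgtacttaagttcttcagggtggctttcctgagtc
Cyp3a11, chr5:145879855-145880104, minus strand: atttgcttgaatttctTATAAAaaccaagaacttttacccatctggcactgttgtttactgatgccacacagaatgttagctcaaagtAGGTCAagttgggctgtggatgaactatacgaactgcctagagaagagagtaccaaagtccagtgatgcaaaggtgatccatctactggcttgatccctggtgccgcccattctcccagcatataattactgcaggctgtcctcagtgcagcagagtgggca
Cyp3a25, chr5:146009619-146009868, minus strand: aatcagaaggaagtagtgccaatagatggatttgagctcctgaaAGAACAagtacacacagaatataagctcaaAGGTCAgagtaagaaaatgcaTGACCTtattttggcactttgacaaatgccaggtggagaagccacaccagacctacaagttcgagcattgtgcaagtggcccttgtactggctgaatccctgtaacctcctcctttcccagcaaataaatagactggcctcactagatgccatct
In the window from 250 bases before to 50 bases after the start, AGGTCA occurred 2 times for Cyp3a25, 1 time for Cyp3a11 and 0 times for Cyp3a13. TGTTCT occurred 1 time each for Cyp3a11, where it began at base 41 counted from the start site, and Cyp3a25, and 0 times for Cyp3a13. TATAAA was found for Cyp3a11 alone among the 3, and TTCNNNGAA, the STAT5 motif, for none of the 6 promoters. These are letter matches and not binding sites, since 16.3% of all 32851 promoters of this length held AGGTCA, 19% TGTTCT, 13.6% TATAAA and 8.3% TTCNNNGAA on either strand. The promoters of Cyp3a16, Cyp3a41a and Cyp3a44 were near copies of each other. At the best shift without gaps, 92.3% to 94.6% of their compared bases were identical. Those of Cyp3a11, Cyp3a13 and Cyp3a25 matched each other at 32.4% to 37.5% in this way. Gaps were not allowed, so an inserted or lost base lowers such a value, and the low values do not show unrelated promoters.

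The 20 liver libraries held 18612550 to 20868924 reads assigned to genes, so that a floor of 3 counts stood at 0.144 to 0.160 CPM (counts scaled to a common library size with TMM factors). The targeted gene followed the labels: Ube3a stood at 48.3 ± 4.95 and 48.8 ± 4.01 CPM in WT livers with vehicle and CORT and at 33.0 ± 4.05 and 34.8 ± 1.93 CPM in AS livers (mean ± SD, n = 5 each), with no overlap between genotypes. Hepatocyte markers were abundant in every liver, the 7 markers summing to 101037 to 114750.0 CPM in WT vehicle, 106736 to 122537 in WT CORT, 98818 to 131501 in AS vehicle and 121475 to 147496 CPM in AS CORT livers. The share of reads that did not align moved with the groups, from 5.39% to 8.93% in WT vehicle and 4.52% to 6.68% in AS vehicle to 3.20% to 4.77% in WT CORT and 1.49% to 3.23% in AS CORT, and its part in the results was not tested. A surrogate variable estimated from the residuals lay between -0.43 and -0.25 in mice L1, L2, L3, L4, L7 and L8, which come from all 4 groups, and between -0.014 and 0.24 in the others, and no label names a batch.

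Levels between genes were compared per kilobase of exon. In WT vehicle livers Cyp3a11, the main drug- and steroid-hydroxylating Cyp3a of male liver, was the highest member with 566 ± 112 CPM per kb (mean ± SD, n = 5), above Cyp3a25 with 322 ± 41.3 and Cyp4a12a with 242 ± 29.9 CPM per kb. Far lower came Cyp3a13 with 47.8 ± 2.78, Cyp4a10 with 28.8 ± 14.5, Cyp4a12b with 20.8 ± 2.65 and Cyp4a14 with 7.29 ± 4.87 CPM per kb. The ranges of the 5 mice overlapped between the neighbours Cyp3a25 and Cyp4a12a, Cyp3a13 and Cyp4a10, and Cyp4a10 and Cyp4a12b, and did not overlap between the other neighbours in this order. The exon length of Cyp3a11, 5093 bases, includes a transcript with a retained intron, which lowers its value per kb.

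The remaining 3 members were at the edge of detection. Cyp3a16, a fetal and juvenile form, had 0 or 1 count in every liver, Cyp3a41a 0 to 3 counts and Cyp3a44 0 to 9 counts, the last pair being female-biased genes of adult liver. They did not pass the filter on low counts (more than 20 normalized counts in at least 3 mice of a group), so 7 of the 10 members were tested, among 12273 genes. Other genes of the clusters were as low: Cyp3a41b, Cyp3a57, Cyp4a29 and Cyp4a30b had 0 to 4 counts in each liver. A change in these genes was not detectable at this depth. In the 20 hippocampal libraries of the same cohort the members had 0 to 59 counts, and Cyp3a13 alone exceeded 3 counts in most of them, in 18 of 20. The highest counts of Cyp3a11 (59), Cyp3a25 (18), Cyp4a14 (17), Cyp4a12a (10) and Cyp4a10 (6) all came from library H1, which held 1931 reads of Alb, the albumin gene of hepatocytes, against 665 in H2 and 0 to 60 in the other 18.

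The first question was how 5 days of CORT changed these genes in WT and in AS liver. Cyp4a14 and Cyp4a10 rose several-fold in both genotypes, and Cyp3a13 rose by a smaller amount in both. In AS livers Cyp3a25 also rose and Cyp4a12a and Cyp4a12b fell, and none of these passed in WT livers. Whether the effects differ between genotypes is a separate test, given after the single comparisons. Cyp3a11 did not pass in either. At a threshold of 0.05 on p-values from the quasi-likelihood test of edgeR, adjusted by the Benjamini-Hochberg method across the 12273 genes, 3 of 7 tested members rose and 0 fell in WT livers, where 18.6% of all genes passed, 8.73% upward and 9.90% downward. In AS livers 4 of 7 rose and 2 fell, where 27.5% of all genes passed, 12.6% upward and 1836 of the 12273 genes downward. The median log2 change of the 7 members was 0.39 in WT and 0.49 in AS livers, against -0.0047 and -0.0032 over all genes. The ranges of the CORT and vehicle mice were separate for 3 members in WT livers (14.1% of all genes) and for 2 in AS livers (16.6% of all genes).

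**Figure D1:**
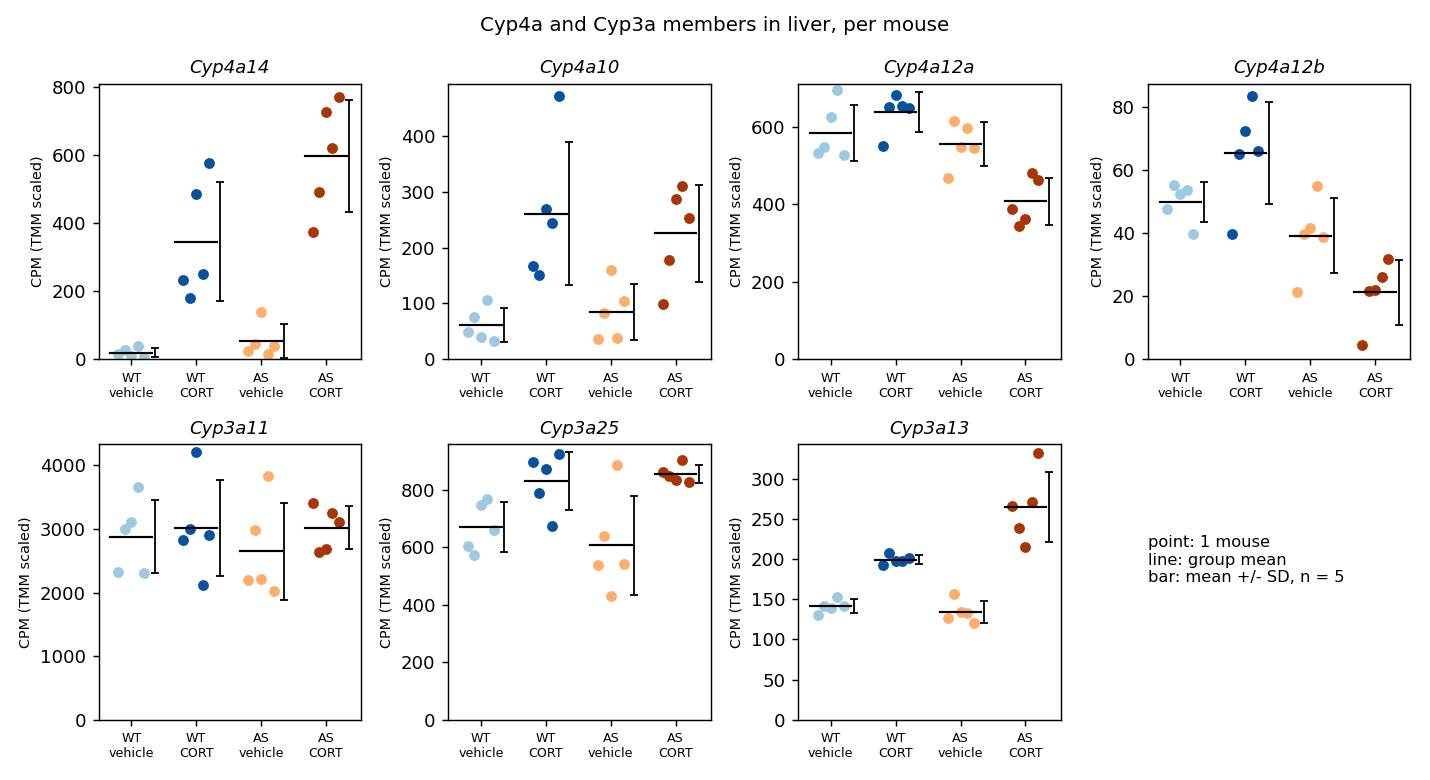
TMM-scaled CPM of the 7 tested members in each liver (points, 1 mouse each), on linear axes that start at 0, with the group mean (line) and SD (bar), n = 5. Cyp4a14 is higher in all CORT livers than in any vehicle liver of the same genotype, and Cyp4a12a and Cyp4a12b are lower in all AS CORT livers than in any WT CORT liver.

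Cyp4a14, a fatty acid hydroxylase and PPARalpha target, had the largest change of the members. Its CPM in the 5 WT vehicle livers was 7.17, 9.08, 14.8, 26.5 and 37.2, and in the 5 WT CORT livers 179, 231, 251, 486 and 575. In AS livers it was 14.6, 24.3, 39.6, 44.3 and 138 with vehicle and 373, 492, 619, 725 and 771 with CORT. Every CORT liver lay above every vehicle liver of its genotype, although the AS vehicle group held 1 mouse far above its 4 fellows. The log2 change was 4.18 ± 0.581 (SE, 18.2-fold, edgeR adjusted p = 3.79e-05) in WT and 3.51 ± 0.560 (11.4-fold, edgeR adjusted p = 9.18e-05) in AS livers. Without that AS vehicle mouse, L11, the log2 change of Cyp4a14 in AS livers was 4.28.

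Cyp4a10, its neighbour in the cluster and likewise a PPARalpha target, rose less. WT vehicle livers had 32.6, 40.1, 48.0, 75.9 and 107 CPM and WT CORT livers 152, 167, 245, 269.98 and 472 CPM. AS vehicle livers had 36.7, 38.5, 83.2, 105 and 159 CPM and AS CORT livers 98.8, 178, 253, 287 and 311 CPM. The WT groups were separate, whereas in AS livers the lowest CORT mouse lay below 2 vehicle mice. The log2 change was 2.11 ± 0.438 (4.31-fold, edgeR adjusted p = 0.00178) in WT and 1.42 ± 0.429 (2.67-fold, edgeR adjusted p = 0.0180) in AS livers. Cyp4a32, which shares 9.8% of the 100-base stretches of Cyp4a10, went the other way: it fell by 1.06 on the log2 scale (SE 0.269, edgeR adjusted p = 0.00809) in WT and by 0.96 (SE 0.268, edgeR adjusted p = 0.0110) in AS livers. Cyp4a31, a low-count neighbour, did not pass in either, with log2 changes of 0.92 (95% confidence interval -0.023 to 1.86) and 0.11 (-0.85 to 1.08).

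Cyp4a10 and Cyp4a14 also varied together among mice of the same group. After the group means were removed from log2 CPM, Pearson's r between them over the 20 livers was 0.906 and Spearman's rho 0.889, each with a permutation p of 1e-05 (100000 permutations within groups, the smallest they can give) and an adjusted p of 0.00021 over the 21 pairs of tested members. Without the 2 mice farthest from the median of Cyp4a10, L7 and L2, r was 0.929. Cyp3a11 followed Cyp3a25 with r = 0.724 (rho 0.696, adjusted permutation p = 0.0316 and 0.0403, r = 0.637 without 2 mice), and Cyp4a12a followed Cyp3a13 with r = 0.673 (rho 0.678, adjusted permutation p = 0.0391 and 0.0403, r = 0.649 without 2 mice) and Cyp3a11 with r = 0.576 (rho 0.611, adjusted permutation p = 0.0391 and 0.0403, r = 0.575 without 2 mice). Cyp4a12a and Cyp4a12b, the nearly identical pair, had r = 0.469 and rho 0.531, which did not pass (adjusted permutation p = 0.220 and 0.0620). All these values share library depth and dissection. The surrogate variable was not removed from them, and its part in these correlations was not tested.

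**Figure D2:**
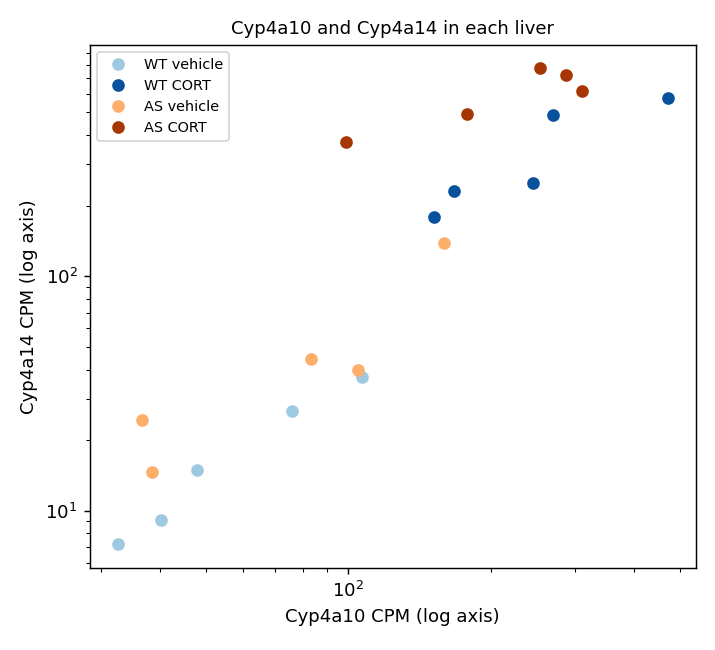
Cyp4a14 against Cyp4a10 in CPM, both on log axes, 1 point per liver and 1 color per group. Livers with more Cyp4a10 tend to have more Cyp4a14 within a group, although the 3 AS CORT livers highest in Cyp4a10 run the other way, and the CORT groups lie above the vehicle groups in Cyp4a14.

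Cyp4a12a, the abundant male-biased hydroxylase, and its near copy Cyp4a12b did not pass in WT livers and were lower with CORT in AS livers. Cyp4a12a had 526, 533, 548, 624 and 694 CPM in WT vehicle and 550.2, 649, 652, 655 and 683 CPM in WT CORT livers. It had 468, 545, 549, 597 and 614 CPM in AS vehicle and 344, 361, 387, 462 and 482 CPM in AS CORT livers. Only 1 of the 5 AS CORT mice reached into the AS vehicle range, where the lowest mouse stood at 468 CPM. The log2 change was 0.12 ± 0.104 (95% confidence interval -0.092 to 0.34, edgeR adjusted p = 0.455) in WT livers, and in AS livers Cyp4a12a fell by 0.45 ± 0.104 (edgeR adjusted p = 0.00316).

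Cyp4a12b had 39.6, 47.5, 52.4, 53.7 and 55.2 CPM in WT vehicle and 39.6, 65.2, 66.0, 72.4 and 83.4 CPM in WT CORT livers. It had 21.2, 38.7, 39.7, 41.5 and 54.7 CPM in AS vehicle and 4.39, 21.7, 21.9, 25.9 and 31.8 CPM in AS CORT livers. The AS groups overlapped, and 1 AS CORT mouse, L7, stood far below the other 4 with 84 reads. The log2 change was 0.39 ± 0.319 (95% confidence interval -0.27 to 1.06) in WT livers, and in AS livers Cyp4a12b fell by 0.89 ± 0.327 (edgeR adjusted p = 0.0490). That call sat at the threshold, since the adjusted p ran from 0.0184 to 0.125 when 1 mouse at a time was left out and was above 0.05 in 16 of those 20 fits, and the change was -0.62 without L7. The adjusted p of Cyp4a12b was also above 0.05 with DESeq2 size factors (0.0525), no filter on low counts (0.0558), 1 surrogate variable (0.0637) and only the groups compared (0.122).

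Cyp3a13, a Cyp3a form outside the main cluster that is also found in intestine, rose in both genotypes. WT vehicle livers had 130.2, 139.6, 142, 142 and 153 CPM and WT CORT livers 192, 197, 198, 201 and 208 CPM. AS vehicle livers had 120.2, 127, 133, 134 and 157 CPM and AS CORT livers 215, 239, 266, 271 and 332 CPM. The CORT mice lay above the vehicle mice without overlap in both genotypes. The log2 change was 0.49 ± 0.0908 (1.41-fold, edgeR adjusted p = 0.000604) in WT and 0.98 ± 0.0914 (1.97-fold, edgeR adjusted p = 1.92e-07) in AS livers.

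Cyp3a25, the second most abundant Cyp3a gene, had 572, 605, 659.9, 748 and 767 CPM in WT vehicle and 673, 789, 873, 898 and 924 CPM in WT CORT livers. It had 429, 538, 543, 639.6 and 886 CPM in AS vehicle and 827, 834, 848, 863 and 905 CPM in AS CORT livers. The AS CORT mice lay close together and above 4 of the 5 AS vehicle mice. Cyp3a25 rose in AS livers, by 0.49 ± 0.141 on the log2 scale (edgeR adjusted p = 0.0129), and did not pass in WT livers, with 0.31 ± 0.141 (95% confidence interval 0.016 to 0.60, edgeR adjusted p = 0.139). In 1 of the 20 fits that left out a mouse, the one without L14, Cyp3a25 passed in WT livers (edgeR adjusted p = 0.0484). Cyp3a59, which shares 115 of the 1901 stretches of Cyp3a25, had log2 changes of 0.55 in WT and 0.60 in AS livers, neither of which passed (edgeR adjusted p = 0.106 and 0.0604). Cyp3a59 passed in 2 of 27 alternatives in WT and 5 in AS livers, with adjusted p down to 0.0438 and 0.00297, both without L14.

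Cyp3a11 had the most reads of all members and no change that passed. WT livers had 2309.8, 2327, 2999, 3115 and 3656 CPM with vehicle and 2122, 2826, 2908, 3002 and 4214 CPM with CORT. AS livers had 2017, 2199.6, 2215, 2982 and 3835 CPM with vehicle and 2641, 2689.9, 3114, 3258 and 3404 CPM with CORT. All 4 groups overlapped. The log2 change was 0.065 in WT (95% confidence interval -0.32 to 0.45, edgeR adjusted p = 0.856) and 0.19 in AS livers (-0.19 to 0.57, edgeR adjusted p = 0.480).

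**Figure D3:**
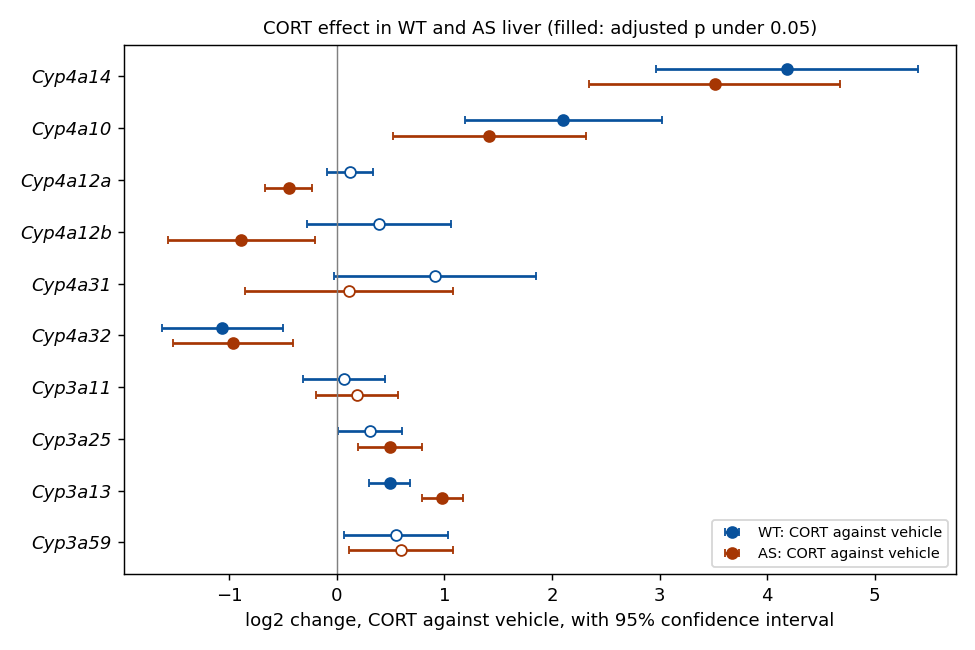
log2 change with CORT (x axis) for the 7 tested members and 3 other tested genes of both clusters, in WT (blue) and AS (brown) livers, with 95% confidence intervals. Filled points passed an adjusted p of 0.05, and Cyp4a14, Cyp4a10, Cyp3a13 and Cyp4a32 are filled in both genotypes.

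The plot of family shares gives the make-up of both families. On the scale of CPM per kb, Cyp4a12a made up 78.3% of the summed Cyp4a genes in WT vehicle livers (mean of 5 mice) and 49.4% with CORT, and in AS livers 73.4% and 33.4%. Cyp4a14 went from 2.23% to 22.8% in WT and from 5.84% to 43.8% in AS livers, and had the largest mean share of the Cyp4a genes in AS CORT livers. The shares of the AS CORT mice overlapped, at 39.4% to 48.0% for Cyp4a14 and 25.7% to 44.7% for Cyp4a12a, and in L7 Cyp4a12a was the higher, with 160 against 143 CPM per kb. Cyp3a11 made up 58.8% of the Cyp3a sum in WT vehicle and 53.8% in WT CORT livers, and 59.1% and 52.6% in AS livers. The exon length of 5093 bases for Cyp3a11, against 2802 in its longest transcript, lowers its share and raises those of other Cyp3a genes. The shares are descriptions with no test, and those of 1 family are not independent of each other. Reads left out for matching more than 1 gene can lower the shares of Cyp4a12a, Cyp4a12b and Cyp4a10 beside that of Cyp4a14.

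**Figure D4:**
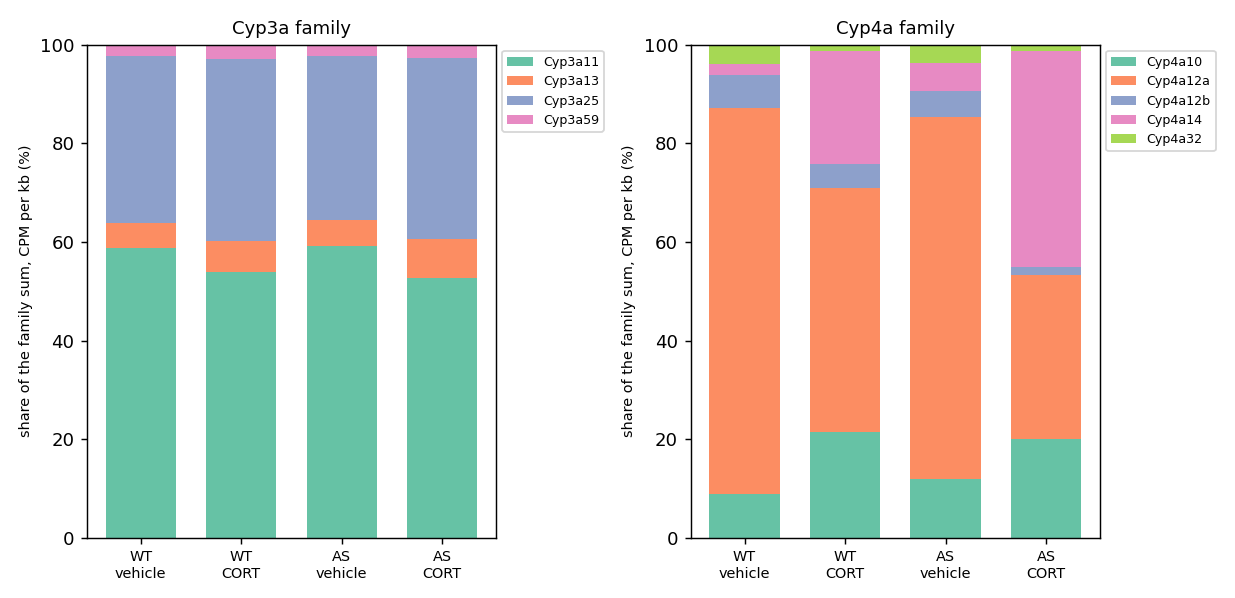
Mean share of each gene in the summed CPM per kb of its family (y axis, %, stacked to 100) in the 4 groups, for genes that reached 1% in some group. The Cyp4a14 and Cyp4a10 segments are taller and the Cyp4a12a segment is shorter with CORT, and Cyp3a11 and Cyp3a25 make up most of the Cyp3a sum in all 4 groups.

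The second question was whether AS and WT livers differed, with the same vehicle and CORT groups used again in these comparisons. With vehicle, 0 of 7 members passed by edgeR's test, in which 2 genes passed in all (0.0163%) and 1270 had an unadjusted p under 0.05, and DESeq2 also called 0 members. Cyp4a14 was the closest, with a log2 difference of 1.46 ± 0.529 (AS minus WT, edgeR adjusted p = 0.338), and the log2 difference of Cyp4a14 was 0.70 without L11, the mouse at 138 CPM. The other 6 members differed by -0.34 to 0.48 on the log2 scale.

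With CORT, Cyp4a12a and Cyp4a12b were lower in AS than in WT livers. Both genes of this nearly identical pair passed, as 2 of the 34 genes that did (0.277% of all genes tested, 0.171% lower in AS). The log2 difference of Cyp4a12a was -0.65 ± 0.104 (AS minus WT, edgeR adjusted p = 0.00842), the 7th smallest p of all genes. All 5 AS CORT mice lay below all 5 WT CORT mice, and ranges were separate in this way, in either direction, for 3 of the 7 members and for 2.18% of all genes. For Cyp4a12b the difference was -1.63 ± 0.330 (edgeR adjusted p = 0.0412), again without overlap between the groups. The Cyp4a12a call held in all 20 fits that left out a mouse (adjusted p up to 0.0308). The Cyp4a12b call was lost in 11 of them (adjusted p up to 0.124, log2 difference -1.36 without L7) and when only these groups were fitted (adjusted p = 0.121).

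Reads of Cyp4a12b made up 7.0% to 9.16% of the reads of the pair in WT vehicle, 6.71% to 11.3% in WT CORT and 4.33% to 8.39% in AS vehicle livers. In AS CORT livers they made up 1.12% to 6.44%, below every WT CORT mouse. Cyp3a13 had 0.41 ± 0.0906 as its log2 difference, higher in all AS CORT than in all WT CORT livers, and did not pass (edgeR adjusted p = 0.0696). It passed in 4 of 27 alternatives, with DESeq2 (adjusted p = 0.00429), 1 surrogate variable (0.0272), without L10 (0.00904) and without L9 (0.0407). Cyp4a10, Cyp4a14, Cyp3a11 and Cyp3a25 overlapped between genotypes, with 95% confidence intervals of the log2 difference of -1.09 to 0.67, -0.27 to 1.85, -0.38 to 0.39 and -0.25 to 0.34.

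**Figure D5:**
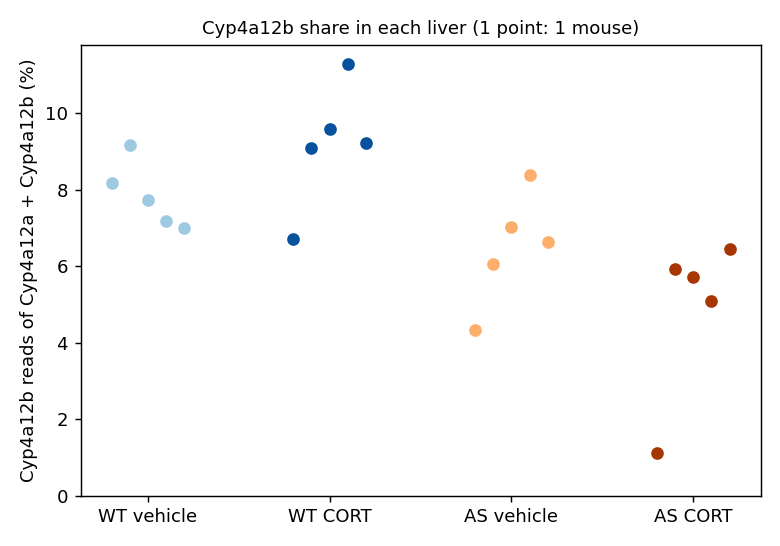
Share of Cyp4a12b in the reads of Cyp4a12a and Cyp4a12b (y axis, %, from 0) in each liver, 1 point per mouse, by group. The 5 AS CORT livers lie between 1.12% and 6.44%, below the WT CORT livers at 6.71% to 11.3%.

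The difference between the CORT effects of the genotypes was then tested itself. No gene passed the interaction in edgeR (0.00%, 0 of 7 members, 995 genes with an unadjusted p under 0.05), while DESeq2 called 9 genes and 0 members. The interaction of Cyp4a12a was -0.57 ± 0.147 (log2, AS effect minus WT effect, edgeR adjusted p = 0.430), that of Cyp3a13 0.49 ± 0.128 (edgeR adjusted p = 0.434) and that of Cyp4a12b -1.28 ± 0.456 (edgeR adjusted p = 0.494). The fall of the Cyp4a12 genes and the rise of Cyp3a25 in AS livers were not shown to differ from the WT effects. For Cyp4a14 and Cyp4a10 the intervals, -2.19 to 0.84 and -1.93 to 0.56, include 0, and the interaction of Cyp4a14 was -0.67 with and 0.095 without L11.

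Genes of the pathways around the members were counted from lists. Of 13 regulators and partner enzymes, all tested, 1 rose and 2 fell in WT and 3 rose and 3 fell in AS livers. Nr1i2, the xenobiotic receptor PXR, rose by 0.39 (edgeR adjusted p = 0.0101) in WT and 0.65 (edgeR adjusted p = 7.61e-05) in AS livers on the log2 scale. Ppara, which encodes PPARalpha and is named here after its values were seen, fell by 0.50 in WT livers (edgeR adjusted p = 0.0213) and had -0.26 in AS livers (edgeR adjusted p = 0.198). Nr3c1, the glucocorticoid receptor, fell by 0.15 (edgeR adjusted p = 0.0202, and 0.184 with no filter on low counts) and 0.22 (edgeR adjusted p = 0.000766). Hnf4a, a hepatocyte transcription factor, rose in AS livers by 0.45 (edgeR adjusted p = 0.000614) and had 0.23 in WT livers (edgeR adjusted p = 0.0703, but 0.0211 without L4 and 0.00679 with 1 surrogate variable).

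Of 13 PXR and CAR targets outside Cyp3a, 3 rose and 4 fell in WT and 4 rose and 3 fell in AS livers (median log2 change -0.16 and 0.22), so that the list did not move one way. Cyp2b10, the classical CAR-induced cytochrome, rose by 5.73 ± 0.498 in WT and 5.28 ± 0.471 in AS livers on the log2 scale. Gadd45b, a stress-response gene counted among those that rose, had 2 to 12 counts in the vehicle livers and 58 to 155 with CORT. It was the 1 gene of the 13 that passed the filter through the CORT groups alone, so it had to differ. Of 22 PPARalpha targets outside Cyp4a, 8 rose and 3 fell in WT and 9 rose and 5 fell in AS livers (median 0.10 and 0.17). Acot1, a cytosolic acyl-CoA thioesterase, rose by 1.67 and 1.55 (edgeR adjusted p = 0.000597 and 0.000752), below the change of Cyp4a14. Acadm, of mitochondrial beta oxidation, rose by 0.25 and 0.42, and Cpt2, which brings fatty acids into its matrix, by 0.36 and 0.21, the latter with an edgeR adjusted p of 0.0218, or 0.0786 with upper-quartile scaling, 0.0606 without L11 and 0.0586 without L19.

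Of 9 male-biased liver genes, 1 rose and 2 fell in WT and 0 rose and 2 fell in AS livers. Cyp2u1 fell by 1.501 and 1.08 and Hsd3b5, a steroid dehydrogenase, by 0.77 and 0.92 on the log2 scale, whereas Mup20, a urinary pheromone protein, rose by 0.77 in WT (edgeR adjusted p = 0.00903) and had 0.039 in AS livers. The WT call of Hsd3b5 (edgeR adjusted p = 0.0427) was lost in 9 of the 20 fits that left out a mouse (adjusted p up to 0.109, without L20). With CORT, Mup20 was lower in AS than in WT livers by a log2 difference of -1.58 ± 0.201 (edgeR adjusted p = 0.000748), and it was the only male-biased gene of the list that passed there. With vehicle the log2 difference of Mup20 was -0.85 ± 0.198 and did not pass (edgeR adjusted p = 0.179), although the ranges were separate, at 299 to 450 CPM in AS and 545 to 815 CPM in WT livers. Only 7 of 14 female-biased genes had enough reads, and 4 of the 7 passed the filter through the CORT groups alone and had to differ, so no count over the list is given. Cyp2c69 is one of these 4, with 1 to 10 counts in the vehicle livers and 56 to 666 with CORT. Fmo2, a flavin monooxygenase that met the filter on low counts in vehicle livers too, rose by 1.79 and 4.23 on the log2 scale. With CORT, Fmo2 was higher in AS than in WT livers by 1.78 (edgeR adjusted p = 0.00842). Of 7 growth hormone signalling genes 0 rose in either genotype, 1 fell in WT and 2 in AS livers. Ghr, the growth hormone receptor, fell by 0.66 and 0.59 (edgeR adjusted p = 1.15e-05 and 2.22e-05), and Stat5b fell by 0.68 in AS livers (edgeR adjusted p = 0.00679) with -0.36 in WT livers (edgeR adjusted p = 0.171, and 0.000130 with 1 surrogate variable). Bcl6, a male-biased repressor of mainly female-biased liver genes, did not pass in either, with -1.94 ± 0.921 and 0.90 ± 0.887, and passed in WT livers without L15 (edgeR adjusted p = 0.0457).

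Of 7 other Cyp4 enzymes tested, 0 rose and 1 fell in WT and 1 rose and 2 fell in AS livers. Cyp4v3 fell by 0.64 and 0.34, Cyp4f16 fell by 0.79 in AS livers (edgeR adjusted p = 0.0292) with -0.66 in WT livers, a call lost in 5 of 20 fits that left out a mouse (adjusted p up to 0.0982, without L11), with no filter on low counts (0.0598) and with only the groups compared (0.0792), and Cyp4f14 did not pass (0.22 and 0.18) except in 2 of 27 alternatives in WT (adjusted p down to 0.0357) and 1 in AS livers (0.0349, without L8). None approached the size of Cyp4a14. Of 8 glucocorticoid receptor targets, 3 rose in WT and 5 in AS livers and 0 fell, with Fkbp5 at 3.43 and 4.14 and Tsc22d3 at 1.25 and 1.74 on the log2 scale.

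Markers of other cells moved with CORT. All 5 Kupffer cell markers fell in both genotypes, their summed level going from 113 to 152 CPM to 55.9 to 83.6 CPM in WT and from 150.1 to 209.9 to 57.4 to 84.7 CPM in AS livers. The 3 erythroid markers summed to 323 to 521 CPM in WT vehicle and 218 to 300.3 CPM in WT CORT, and 232 to 438 and 115 to 176 CPM in AS livers. Pericentral hepatocyte markers, of the zone in which many cytochromes P450 are made, summed to 6638 to 13227 CPM in WT vehicle, 4619.9 to 6857 in WT CORT, 5512 to 9411 in AS vehicle and 4909 to 7536 in AS CORT livers. The most abundant genes carry that sum, and of the 6 tested 1 rose and 3 fell with CORT in WT and 2 rose and 1 fell in AS livers. Of 5 endothelial markers 1 fell in WT and 3 in AS livers, of 5 stellate cell markers 0 and 2, of 3 cholangiocyte markers 0 and 1, and none of these rose. Of 6 periportal hepatocyte markers 1 rose and 0 fell in WT and 2 rose and 1 fell in AS livers. The summed lymphocyte markers, near the floor and with 1 of 4 tested, were at 0.674 to 2.36 CPM in WT vehicle and 0.0989 to 0.308 in WT CORT, and at 1.69 to 2.55 and 0.107 to 0.535 CPM in AS livers. Whole liver was sequenced, so fewer cells of a type and less RNA per cell cannot be told apart, and the part of these shifts in the members' changes was not tested.

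Log2 CPM less the group mean, with the surrogate variable not removed, was compared over the 20 livers. The genes outside both families that ran most like each member are given as a description. For Cyp4a10 these were Cyp2c39 (r = 0.872), Mtus1 (0.820) and Orm2 (0.807), and for Cyp4a14 Cyp2c39 (r = 0.808), Orm2 (0.787) and Igfbp2 (0.769), so 2 of 3 were common to both. For Cyp4a12a they were Rexo2 (r = 0.888), Cmbl (0.867) and Ppdpf (0.860), and for Cyp4a12b Ptgds (r = 0.834), Obp2a (0.810) and Sirt4 (0.802). For Cyp3a11 they were Yipf1 (r = 0.794), Cav1 (0.767) and Ntm (0.765), for Cyp3a13 Dynlrb1 (r = 0.844), Slc22a18 (0.843) and Fxyd1 (0.842), and for Cyp3a25 Ephx2 (r = 0.778), Ctse (0.777) and E330011O21Rik (0.772).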

How the data were processed

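The authors isolated RNA from frozen tissue, made stranded mRNA libraries for paired-end reads of 100 bases, checked them with FastQC and MultiQC, aligned them to mm10 with STAR and counted reads per gene with HTSeq in the BioWDL pipeline. The strand setting of the counting and the annotation release are not given in the sources used here. They deposited raw counts per gene, and the rows of reads assigned to no gene were left out of library sizes (15.4% to 23.3% of reads in the livers). A row of reads with more than 1 alignment (6.71% to 8.44%) was left out likewise, so genes with common stretches can lose reads.

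Identifiers were matched to GENCODE M21, with 55480 of 55573 found. The 20 livers were fitted together in edgeR 4.0.16 (R 4.3.3) with TMM factors, 1 coefficient per group, and quasi-likelihood F tests. The filter followed the rule that the study states (more than 20 median-of-ratios counts in at least 3 mice of a group). Benjamini-Hochberg adjustment ran over the 12273 genes that it left. The paper gives fewer liver genes after its own filter, so the gene sets differ. Standard errors were derived from the F statistics. The mice are separate animals. The test script was tested on simulated data. The alternatives were DESeq2 1.42.0, its size factors in edgeR, upper-quartile scaling, no filter, only the groups compared, 1 surrogate variable (sva 3.50.0), an adjusted p under 0.01, and leaving out each mouse in turn. Members and gene lists were chosen with earlier results of these data known. Values were named by a rule: the members, the other genes of both clusters, Ube3a, the 2 listed genes with the smallest adjusted p in each CORT effect, and the 3 genes most like each tested member. Of the listed genes so named, 2 are not reported here. The acute cohort and the other hippocampal results were not used here.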

Additional observations from a re-analysis of the deposited data

Results flagged for a closer look

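In 28 groups of 5 mice (7 tested members in 4 groups), 2 mice stood far from the other 4 of their group by Dixon's test. Chance alone gives about 1 such group in 20. The CPM of Cyp4a14 in AS vehicle mouse L11 was 138, against 14.6 to 44.3 in the other 4. Cyp4a10 in the same liver was 159 CPM, the highest of its group. The CPM of Cyp4a12a in WT CORT mouse L3 was 550.2, against 649 to 683 in the other 4, and its Cyp4a12b, 39.6 CPM, was the lowest of its group.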

How the results depend on the processing

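Of 2850 recomputed values for 106 results, 2683 kept their direction and their side of the threshold. No paired analysis was possible because the 4 liver groups share no mouse numbers. With an adjusted p under 0.01, 1336 genes passed for the CORT effect in WT liver, 2005 for the CORT effect in AS liver, 1 for AS against WT with vehicle and 10 with CORT, and the members called were 3 for CORT in AS and 1 for AS against WT with CORT. DESeq2 called 44 genes for AS against WT with vehicle, 93 with CORT and 9 for the interaction, 1 surrogate variable gave 86 with CORT and 2 for the interaction, and no filter gave 2 for the interaction. With only the groups compared, 0 genes passed for AS against WT with vehicle (edgeR, which called 2 over all groups), and 1 member with CORT. Leaving out 1 mouse gave 1 to 4 genes for AS against WT with vehicle, 12 to 63 with CORT (12 without L5, 63 without L10), 1 to 2 members with CORT and 0 to 1 genes for the interaction.

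Directions of values that had not passed also turned. With upper-quartile scaling the CORT change of Mup20 in AS livers was -0.0057, and with 1 surrogate variable the AS against WT difference of Cyp3a59 with CORT was 0.0040. Leaving out 1 mouse, the log2 values that changed sign ran as follows. For CORT in WT, Cyp3a11 ran from -0.087 to 0.17. For CORT in AS, Cyp4a31 ran from -0.14 to 0.59 and Mup20 from -0.12 to 0.17. For AS against WT with vehicle, Cyp3a59 ran from -0.35 to 0.086, Cyp4a31 from -0.51 to 0.25 and Cyp4a32 from -0.26 to 0.22. For AS against WT with CORT, Cyp3a11 ran from -0.094 to 0.16, Cyp3a25 from -0.021 to 0.087, Cyp4a10 from -0.35 to 0.12, Cyp3a59 from -0.13 to 0.068 and Cyp4a32 from -0.080 to 0.14. For the interaction, Cyp4a14 ran from -1.07 to 0.095, Cyp3a59 from -0.10 to 0.33 and Cyp4a32 from -0.18 to 0.30. The causes were not tested. Counting error and 5 mice per group limit low genes such as Cyp4a31.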
